A study of Mus musculus with 12 samples.

Results

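Genes were described that differed in one direction between arrays labelled Blimp1-deficient (CKO) and arrays labelled Blimp1-sufficient (Ctrl), in regulatory as in effector T cells. Each gene was represented by 6 differences, the log2 intensity of an array labelled CKO minus that of the array of the same cell type and the same number labelled Ctrl, 3 in each cell type. Of 12119 genes tested, 810 had 6 differences of one sign, and 66 of these also passed the test of their mean difference across all genes. The 66 genes, 29 higher and 37 lower in the CKO arrays, are the members described here.

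The series holds 12 arrays, 3 for each of 4 populations of CD4 T cells. Naive CD4+CD44low T cells with a Foxp3GFP reporter, from C57BL/6 mice whose stated age was 8 to 12 weeks, were either Blimp1-sufficient (Ctrl) or Blimp1-deficient (CKO). Both kinds, told apart by an allotype marker, were injected in equal numbers into RAG1-/- mice, which lack mature T and B cells. The injected cells were recovered by sorting after 6 to 8 weeks. Cells with the reporter are called Treg here (pTreg in the labels) and cells without it Teff, so the groups are Ctrl Treg, CKO Treg, Ctrl Teff and CKO Teff, and donors of both genotypes developed in the same kind of host. Cells of the spleen, of mesenteric lymph nodes and of large-intestinal lamina propria were pooled, and all 4 groups were stimulated for 4 h with PMA and ionomycin before RNA was taken. The sources used here do not state which promoter drives the Cre recombinase or how much of the gene is deleted. Nor do the labels say that arrays of a group came from separate animals, so the p-values measure only the spread between these samples.

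Blimp1 is a zinc finger protein encoded by Prdm1 that binds DNA and mostly represses transcription. It is best known for ending the germinal centre programme in B cells as they become plasma cells. In T cells it accumulates in effector cells, where it opposes Bcl6 and the follicular helper programme, dampens Il2 and is needed for high Il10, the gene of an anti-inflammatory cytokine. Foxp3+ cells at mucosal surfaces also carry it.

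The targeted gene was read first, because it checks the labels. Prdm1 had log2 intensities of 5.19, 6.07 and 6.03 in Ctrl Treg 1 to 3 and 9.16, 8.47 and 9.48 in CKO Treg 1 to 3. In Teff the values were 4.64, 5.39 and 4.73 in Ctrl and 7.83, 8.9995 and 7.94 in CKO. The signal was therefore higher in the arrays labelled CKO, with all 6 of them above all 6 Ctrl arrays. The mean difference was 3.31 ± 0.18 (SE, 6 pairs; 9.90-fold) with a limma adjusted p of 0.000231. It was 3.27 in Treg and 3.34 in Teff. A second Prdm1 probe lay below the median of its array on all 12 arrays, at 4.56 or less. The sources used here do not place the bright probe relative to the deleted part, so a signal on it does not show whether functional Blimp1 was made. Whether the genotype labels were exchanged cannot be told from these arrays either, and an exchange would turn every direction given here. CKO and Ctrl therefore stand throughout for arrays so labelled.

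The reporter sort was visible in the data. Foxp3 lay between 7.29 and 8.94 on the 6 Treg arrays and between 4.42 and 4.85 on the 6 Teff arrays, near the array median of 4.66 to 4.68, with no overlap. Its genotype difference was 0.04 ± 0.12 (adjusted p = 0.952). Of 9 T cell markers listed, the 7 with a probe were above the array median on all 12 arrays. Correlations between arrays ran from 0.943 to 0.988 over all probes. Signals of other cell types are described with the member lists below.

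Promoters of 48 of the 66 members were found in a RefSeq table of the mouse assembly GRCm38.p6, and were searched for letters that resemble known Blimp1 sites, whose core is GAAAG. The motifs were GAAAGTG, AGNGAAAG and GTGAAAG on either strand, in windows from 250 bases before to 50 bases after each annotated start. Of 66 such windows of members, 4 held a match (6.06%), against 13.7% of 12459 windows of all genes tested. The 4 windows belonged to Ccr6 and Cd9, which rose, and to Ppp1r16b and an uncharacterised transcript, which fell. The 250 upstream bases are shown for the targeted gene, which held no match, and for the 3 named members with one, 5′ to 3′ on the strand of the gene, with the matched letters in capitals. Positions count back from −1, the base before the start. Ccr6 (chr17:8242276-8242525, plus strand, the second of its starts in the table) held GTGAAAG on the opposite strand from −216. Cd9 (chr6:125494761-125495010, minus strand) held AGNGAAAG from −193, and Ppp1r16b (chr2:158666483-158666732, plus strand) held it from −103. The Prdm1 window is chr10:44458749-44458998 on the minus strand. A match describes these letters only and is not a measured binding site.
Prdm1: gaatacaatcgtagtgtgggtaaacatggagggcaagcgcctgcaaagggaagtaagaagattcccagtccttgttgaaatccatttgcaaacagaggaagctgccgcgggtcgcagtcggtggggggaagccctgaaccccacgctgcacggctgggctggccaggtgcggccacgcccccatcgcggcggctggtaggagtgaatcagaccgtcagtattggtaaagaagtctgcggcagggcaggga
Ccr6: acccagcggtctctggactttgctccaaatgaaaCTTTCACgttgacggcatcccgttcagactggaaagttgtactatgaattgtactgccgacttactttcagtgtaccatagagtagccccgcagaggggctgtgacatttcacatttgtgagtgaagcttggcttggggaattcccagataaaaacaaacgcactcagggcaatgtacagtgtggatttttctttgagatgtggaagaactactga
Cd9: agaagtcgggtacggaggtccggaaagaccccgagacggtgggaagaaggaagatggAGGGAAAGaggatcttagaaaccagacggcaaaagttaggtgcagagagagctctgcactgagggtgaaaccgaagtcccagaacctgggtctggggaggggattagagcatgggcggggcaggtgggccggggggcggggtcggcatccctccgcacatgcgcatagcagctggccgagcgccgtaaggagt
Ppp1r16b: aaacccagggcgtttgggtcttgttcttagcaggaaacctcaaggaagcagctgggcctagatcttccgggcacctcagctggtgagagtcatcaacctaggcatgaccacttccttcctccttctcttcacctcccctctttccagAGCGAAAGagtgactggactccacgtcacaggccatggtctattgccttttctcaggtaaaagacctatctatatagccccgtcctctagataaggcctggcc

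A gene was called at a Benjamini-Hochberg adjusted p under 0.05 in limma, over all 12119 genes, with the 6 pairs as blocks. The 66 calls were 0.545% of the genes tested, the 29 rises 0.239% and the 37 falls 0.305%. All 66 had the same direction in 6 of 6 pairs, which is no separate evidence, since the test and the count use the same 6 differences. Of all genes, 6.68% had one direction throughout, 365 upward (3.01%) and 445 downward (3.67%), so 744 such genes were not called. The median difference of the rises was 1.15 and that of the falls −0.78 on the log2 scale, and 16 rises and 8 falls were at least 2-fold. The last gene inside the threshold was Cep120, a centrosomal protein, at −0.43 (adjusted p = 0.0485), and the first outside was Rgs10 at −0.68 (adjusted p = 0.05004). Without the blocks 8 genes passed, all of them among the 66, and with a separate coefficient for each cell type 275 passed, which included all 66. Leaving out Treg pair 1, 2 or 3 gave 27, 18 and 20 calls, and leaving out Teff pair 1, 2 or 3 gave 69, 51 and 49.

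**Figure D1:**
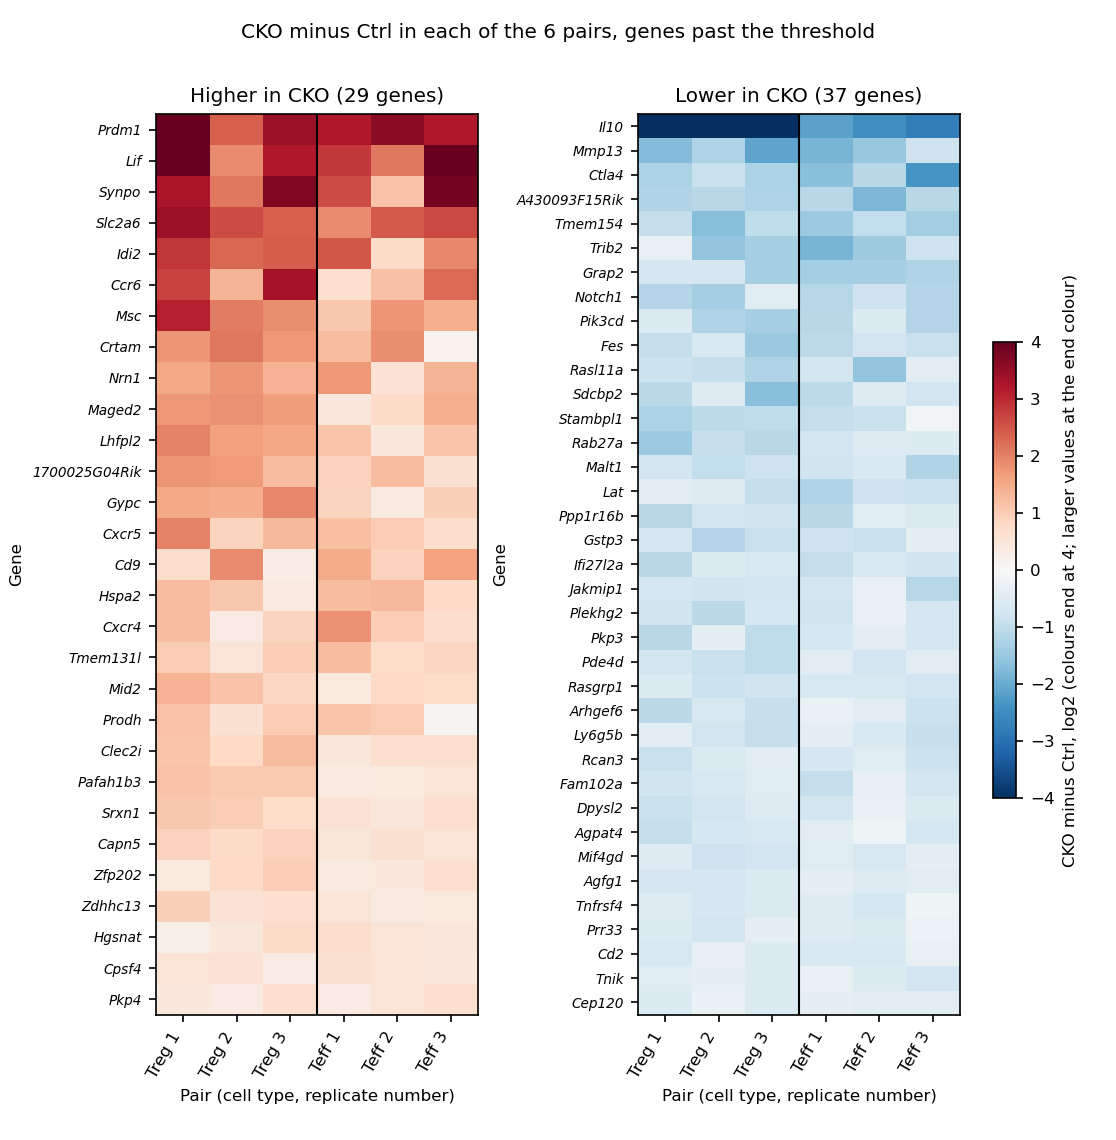
Difference between the CKO and the Ctrl array of each pair (log2, colour, ends at 4) for the 29 genes higher and the 37 genes lower in CKO, with genes in rows and the 3 Treg and 3 Teff pairs in columns, divided by the black line. All differences on the left are positive and all on the right are negative; Il10 is darkest in the Treg pairs.

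Il10 had the largest fall of the 66 genes. It had log2 intensities of 12.53, 11.62 and 12.52 in Ctrl Treg and 7.17, 6.85 and 6.94 in CKO Treg. In Teff they were 12.46, 12.27 and 11.12 in Ctrl and 10.31, 9.81 and 8.35 in CKO. The 6 CKO arrays lay below the 6 Ctrl arrays, and CKO Treg lay below CKO Teff. Il10 fell by 3.85 on the log2 scale (SE 0.48, 14.4-fold, adjusted p = 0.0147), by 5.24 in Treg and by 2.46 in Teff. The call was lost without Treg pair 2 (−3.66, adjusted p = 0.0774) or Treg pair 3 (−3.50, adjusted p = 0.0523). In the limma fit with a separate coefficient for each cell type, the adjusted p of the mean fall was 4.65e-06. In that fit the falls within Treg and within Teff had an SE of 0.18 each, with adjusted p of 6.46e-06 and 0.00307.

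Lif, a cytokine of the interleukin-6 family that acts on stem cells and on the balance of T cell subsets, was the largest rise after Prdm1. Its values were 6.37, 8.13 and 6.32 in Ctrl Treg and 10.41, 10.01 and 9.51 in CKO Treg. In Teff, Ctrl values of 7.84, 8.99 and 5.09 stood against CKO values of 10.66, 11.11 and 9.28. The Ctrl arrays were spread over several log2 units while the CKO arrays were closer together, and no Ctrl array reached a CKO array. The mean difference was 3.04 ± 0.30 (SE; 8.23-fold, adjusted p = 0.00823), and 2 further kept probes had the same sign. Mmp13, a collagenase that cuts the extracellular matrix, fell by 1.55 (SE 0.15, adjusted p = 0.00823), from group means of 10.97 to 9.28 in Treg and of 11.56 to 10.16 in Teff, with overlap of the genotypes in Teff only. Among 19 T helper cytokines tested, 1 (Il10) was called lower and none higher. The list's median was 0.07 against −0.01 over all genes, and Tnf, though lower in 6 of 6 pairs (mean −0.54), did not pass (adjusted p = 0.0882).

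Receptors that steer T cells between tissues were among the rises. Ccr6, the receptor of the chemokine Ccl20 carried by gut-homing and Th17-type cells, had values of 9.08, 10.91 and 7.80 in Ctrl Treg and 11.77, 12.28 and 11.14 in CKO Treg. In Teff the Ctrl values were 8.37, 7.25 and 7.94 and the CKO values 9.05, 8.41 and 10.19. Within each cell type the genotypes did not overlap, although Ctrl Treg 2 was above every CKO Teff array. The mean difference was 1.92 ± 0.32 (SE; adjusted p = 0.0446). A second Ccr6 probe gave 1.98 with 6 of 6 pairs higher.

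Cxcr5 draws cells into B cell follicles and belongs to the follicular helper programme. It read 6.11, 6.42 and 6.05 in Ctrl Treg and 8.08, 7.31 and 7.33 in CKO Treg. In Teff it read 7.06, 6.80 and 5.37 in Ctrl and 8.27, 7.81 and 6.06 in CKO. The genotypes were apart in Treg and overlapped in Teff, where pair 3 was low in both. Cxcr5 rose by 1.18 ± 0.15 (SE; adjusted p = 0.016). Cxcr4, the receptor of Cxcl12 and a homing receptor for bone marrow, rose by 0.99 ± 0.17 (SE; adjusted p = 0.0485), from 6.31 to 7.12 in Treg and from 5.82 to 7.00 in Teff. These 3 were the only calls among 17 chemokine and chemokine receptor genes tested, all upward, and the median of the list was 0.07. The list as a whole went both ways. At an unadjusted limma p under 0.05 it held 12 genes, 6 higher and 6 lower, against 11.4% of all genes. In 6 of 6 pairs 4 of the 17 were higher and 2 were lower, against 3.01% and 3.67% of all genes. Xcl1, a chemokine of activated T cells, was higher in 6 of 6 pairs (1.33) without passing (adjusted p = 0.0546). Each of the 3 receptors lost its call in at least 2 of the 6 fits without 1 pair, Ccr6 and Cxcr4 in 5 of them and Cxcr5 without Treg pair 2 or 3, with adjusted p up to 0.123, 0.145 and 0.0691.

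**Figure D2:**
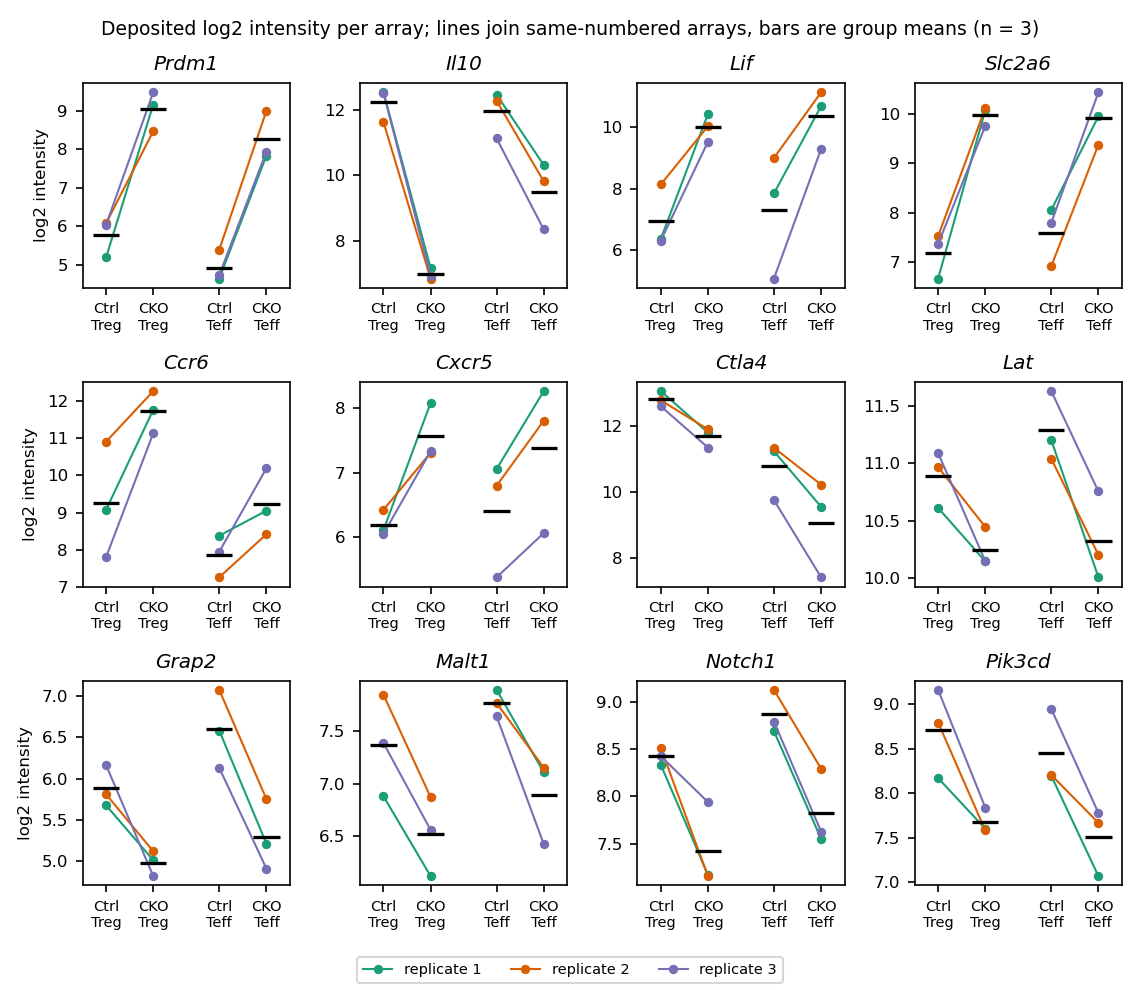
Deposited log2 intensity of 12 members on each array, by genotype and cell type; coloured lines join arrays of one number and black bars are means of 3 arrays. All lines of the panels for Prdm1, Lif, Slc2a6, Ccr6 and Cxcr5 rise and all lines of the other panels fall, steepest for Il10 in Treg.

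Surface receptors that set the response of T cells to stimulation were among the falls. Ctla4, the inhibitory receptor that competes with Cd28 for its ligands, had values of 13.05, 12.77 and 12.59 in Ctrl Treg and 11.79, 11.89 and 11.34 in CKO Treg. In Teff they were 11.22, 11.33 and 9.75 in Ctrl and 9.54, 10.21 and 7.40 in CKO. Every CKO array was below its partner, and the genotypes overlapped only in Teff, where Ctrl Teff 3 was below CKO Teff 2. Ctla4 fell by 1.42 (SE 0.17, adjusted p = 0.0131), and without Treg pair 3 its adjusted p was 0.0526. It was the only call among 10 receptors of the Cd28 family and related cosignalling receptors, whose median was −0.32.

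Tnfrsf4 (OX40), a costimulatory receptor of the tumour necrosis factor family, fell by 0.53 (SE 0.09, adjusted p = 0.0447) and was the only call among 17 ligands and receptors of that family. It kept its call in 1 of the 6 fits without 1 pair, with adjusted p up to 0.164 in the others. Tnfrsf18 was lower in 6 of 6 pairs (−0.77, adjusted p = 0.123). Notch1, a receptor for cell-bound ligands that shapes T cell fate, fell by 1.02 (SE 0.12, adjusted p = 0.0107). Its Ctrl arrays lay between 8.33 and 9.12 and its CKO arrays between 7.16 and 8.29, with no overlap among the 12. Cd2, an adhesion receptor of T cells, fell by 0.50 (SE 0.08, adjusted p = 0.0378), and its call was lost in each of the 6 fits without 1 pair. Of 16 genes of a Treg signature list, 3 were called, all lower: Il10, Ctla4 and Tnfrsf4. The list's median was −0.50, against −0.01 over all genes. Below 0 were 14 of 16, against 6453 of all 12119 genes, and 5 were lower in 6 of 6 pairs (3.67% of all genes were). These genes are also expressed by activated Teff, in which the median of the list was −0.30 against −0.74 in Treg.

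Of the signalling chain below the T cell receptor, Lat and Grap2 fell. Lat is the membrane scaffold onto which signalling proteins gather after receptor engagement, and Grap2 (Gads) is the adaptor that joins it to Lcp2. Lat read 10.61, 10.97 and 11.09 in Ctrl Treg and 10.15, 10.45 and 10.15 in CKO Treg, and 11.20, 11.04 and 11.63 in Ctrl Teff against 10.01, 10.20 and 10.76 in CKO Teff. Grap2 read 5.68, 5.81 and 6.16 against 5.01, 5.12 and 4.82 in Treg, and 6.58, 7.07 and 6.13 against 5.21, 5.75 and 4.91 in Teff. For both genes the genotypes were apart in Treg and in Teff. Lat fell by 0.80 (SE 0.11, adjusted p = 0.0164) and Grap2 by 1.10 (SE 0.12, adjusted p = 0.0102). The fall of Grap2 kept its call in all 6 fits without 1 pair, and that of Lat in 3, with adjusted p up to 0.0717 without Treg pair 3, Teff pair 2 or Teff pair 3.

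Lat and Grap2 were the 2 calls among 14 genes of proximal T cell receptor signalling, and 12 of the 14 differences were below 0. Of all 12119 genes, 6453 were below 0, and 3.67% were lower in 6 of 6 pairs. The list's median was −0.34, with −0.31 in Treg and −0.35 in Teff. Besides the 2 calls, Cd3e (−0.48), Trat1 (−0.38), Cd6 (−0.46), Cd3g (−0.44) and Zap70 (−0.29) were lower in 6 of 6 pairs without passing (adjusted p = 0.065 to 0.24). The mean level of the list was 9.55 to 9.64 in Ctrl Treg, 9.17 to 9.49 in CKO Treg, 9.90 to 9.95 in Ctrl Teff and 9.37 to 9.54 in CKO Teff.

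Malt1, Pik3cd, Fes and Trib2 were among the 15 largest falls and belong to none of the lists. Malt1, the protease that links antigen receptors to NF-kB, read 6.88, 7.84 and 7.39 in Ctrl Treg and 6.12, 6.87 and 6.56 in CKO Treg. In Teff, 7.89, 7.77 and 7.64 in Ctrl stood against 7.11, 7.15 and 6.43 in CKO. The drop was similar in all pairs, between −0.61 and −1.21, and averaged −0.86 (SE 0.09, adjusted p = 0.00946). Pik3cd, the catalytic subunit of the PI3-kinase of leukocytes, fell by 0.99 (SE 0.12, adjusted p = 0.0147), with all CKO arrays at 7.07 to 7.84 and all Ctrl arrays at 8.17 to 9.16. Its call was lost without Treg pair 2 or 3 (adjusted p up to 0.0774). Fes, a cytoplasmic tyrosine kinase, fell by 0.97 (SE 0.11, adjusted p = 0.0114), and Trib2, a pseudokinase of the Tribbles family, by 1.21 (SE 0.19, adjusted p = 0.0304). Trib2 was the less even, with −0.28 in Treg pair 1 and −1.85 in Teff pair 1, and it kept its call in 1 of the 6 fits without 1 pair.

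Rasgrp1, Pde4d and Rcan3 had smaller falls and are named after their values were seen. Rasgrp1, which activates Ras on diacylglycerol, fell by 0.71 (SE 0.08, adjusted p = 0.00946), with 6 pair differences between −0.54 and −0.86. Pde4d, which breaks down cyclic AMP, fell by 0.72 (SE 0.10, adjusted p = 0.0208). Rcan3, a regulator of calcineurin, fell by 0.66. Rasgrp1 kept its call in all 6 fits without 1 pair, and Pde4d and Rcan3 each kept theirs in 2 of them.

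Metabolic genes gave one large rise. Slc2a6 encodes a hexose transporter of the facilitative glucose transporter family. Its values were 6.66, 7.52 and 7.36 in Ctrl Treg and 10.08, 10.12 and 9.76 in CKO Treg, and 8.05, 6.91 and 7.80 in Ctrl Teff against 9.95, 9.38 and 10.44 in CKO Teff. All 6 CKO arrays lay above all 6 Ctrl arrays, by more than the spread within any group. Slc2a6 rose by 2.57 ± 0.16 (SE; 5.94-fold, adjusted p = 0.000575) and kept its call in all 21 alternatives run. It was the 1 call among 15 genes of glycolysis and hexose transport. In that list 13 of 15 differences were above 0 with a median of 0.19. Of all 12119 genes, 5666 were above 0, and 3.01% were higher in 6 of 6 pairs. Tpi1 (0.66), Pgam1 (0.60), Slc2a1 (0.39) and Pfkl (0.72) were higher in 6 of 6 pairs and Slc2a3, another glucose transporter, was lower in 6 of 6 (−0.89), none of them past the threshold (adjusted p = 0.0641 to 0.106).

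Idi2, an isomerase of isoprenoid synthesis, rose by 2.12 ± 0.24 (SE; adjusted p = 0.0102), with the smallest difference, 0.76, in Teff pair 2. Smaller rises of enzymes, named after their values were seen, were those of Prodh, which oxidises proline (0.83, adjusted p = 0.0446), and of Srxn1, which restores oxidised peroxiredoxins (0.75, adjusted p = 0.0164). Both lost their calls without any 1 of the 3 Treg pairs, and Prodh also without Teff pair 1 or 2 (adjusted p up to 0.138 for Prodh and 0.0794 for Srxn1). Agpat4, an acyltransferase of phospholipid synthesis, fell by 0.61, and Gstp3, a glutathione transferase, by 0.80. Agpat4 kept its call in 1 of the 6 fits without 1 pair and Gstp3 in 2, with adjusted p up to 0.161 and 0.0751.

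Msc (musculin), a repressor of the basic helix-loop-helix family, was the transcriptional regulator with the largest rise after Prdm1. It read 6.50, 8.23 and 8.08 in Ctrl Treg and 9.62, 10.28 and 9.94 in CKO Treg, and 6.29, 6.98 and 8.62 in Ctrl Teff against 7.38, 8.75 and 10.03 in CKO Teff. The genotypes were apart in Treg and overlapped in Teff, where replicate 3 was high in both. Msc rose by 1.88 ± 0.22 (SE; adjusted p = 0.0114), and without Treg pair 2 or 3 the adjusted p was up to 0.0649. Among 11 genes known to be repressed or opposed by Blimp1, Cxcr5 was the 1 call. Of these, 9 of 11 were above 0, against 5666 of all 12119 genes. Bcl6, the follicular repressor that opposes Blimp1, was higher in 5 of 6 pairs (1.27, adjusted p = 0.0824), and in Teff pair 2 it read 9.37 in Ctrl and 9.35 in CKO. Id3, an inhibitor of basic helix-loop-helix factors, was higher in 6 of 6 pairs (0.67, adjusted p = 0.0831). Of 8 genes known to depend on Blimp1, Il10 was the 1 call. The Tfh list (7 genes tested) and the Th17 list (12 genes tested) each held 1 call, Cxcr5 and Ccr6. No gene was called in the lists for naive and central memory cells (8), the immediate early response (16), apoptosis (13), the cell cycle (12), the unfolded protein response (14) and interferon (13). At an unadjusted p under 0.05 these lists held 4 of 8, 4 of 16, 6 of 13, 1 of 12, 2 of 14 and 0 of 13 genes, against 11.4% of all genes. In the naive and central memory list 1 gene was higher and 2 were lower in 6 of 6 pairs (37.5%, against 6.68% of all genes). In the apoptosis list 12 of 13 differences were below 0, against 6453 of all 12119 genes.

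Synpo (synaptopodin), which binds actin, rose by 2.78 ± 0.33 (SE; 6.88-fold, adjusted p = 0.0114). Its Ctrl arrays lay between 5.56 and 7.93 and its CKO arrays between 9.06 and 9.82, with no overlap. Crtam, an adhesion receptor of activated cytotoxic and helper T cells, rose by 1.48 ± 0.23 (SE; adjusted p = 0.0313). The 3 Treg pairs gave 1.74 to 2.12 and Teff pair 3 gave 0.14. Nrn1 (neuritin), a protein anchored in the outer membrane leaflet, rose by 1.40 ± 0.15 (SE; adjusted p = 0.00946). Cd9, a tetraspanin, rose by 1.15 ± 0.20 (SE; adjusted p = 0.0485), from 8.90 to 9.86 in Treg and from 9.88 to 11.21 in Teff. The rise of Crtam and that of Cd9 each kept their call in 1 of the 6 fits without 1 pair, while Synpo and Nrn1 kept it in all 6.

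Further rises were Maged2 (1.31), a member of the melanoma antigen family, the membrane proteins Lhfpl2 (1.30) and Gypc (glycophorin C, 1.18), and Hspa2 (1.01), a chaperone of the Hsp70 family, with adjusted p of 0.0156 to 0.0313. Their calls were lost in 2 to 4 of the 6 fits without 1 pair. Further falls were Tmem154 (−1.25, adjusted p = 0.00612), a membrane protein, and Rasl11a (−0.96), a Ras-like GTPase. Sdcbp2 (−0.93), a syntenin that binds membrane lipids, Stambpl1 (−0.88), a deubiquitinase, and Rab27a (−0.88), a GTPase that docks secretory granules, also fell. Adjusted p of the last 4 was 0.0232 to 0.0377, and each kept its call in 1 to 3 of the 6 fits without 1 pair; Tmem154 kept it in all 6.

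The other rises, of 0.49 to 0.89, were those of Tmem131l, Mid2, Clec2i, Pafah1b3, Capn5, Zfp202, Zdhhc13, Hgsnat, Cpsf4 and Pkp4, and 1 transcript with a clone name rose by 1.24. Ppp1r16b, Ifi27l2a, Jakmip1, Pkp3, Ly6g5b, Fam102a, Dpysl2, Mif4gd, Agfg1, Prr33 and Tnik each fell by 0.50 to 0.80. So did Plekhg2 (−0.72) and Arhgef6 (−0.70), and 1 transcript with a clone name fell by 1.26. Clec2i encodes a ligand of NK-type lectin receptors, Zdhhc13 attaches palmitate to proteins, and Ppp1r16b regulates a protein phosphatase. All of these are named with their values known.

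The size of the shared response was compared between the cell types. Of the 66 members, 44 had the larger difference in Treg and 22 in Teff, and the median ratio of the Teff to the Treg difference was 0.806. The 44 were 66.7% of the members, against 52.1% of all genes. Of the rises 20 of 29 were larger in Treg, against 56% of all genes higher in CKO, and of the falls 24 of 37, against 48.6% of all genes lower in CKO. These are counts over chosen genes, with no test. Within the cell types the genotypes did not overlap for 55 members in Treg and for 40 in Teff, against 12.3% and 6.77% of all genes. The members were chosen on these same differences, so nothing is read from these counts. They overlapped in neither for 35 members, against 86 of all genes tested (0.71%). For 14 members all 6 CKO arrays lay on one side of all 6 Ctrl arrays, against 30 of all genes (0.248%).

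The difference between the cell types was itself tested, as the CKO-minus-Ctrl difference in Treg less the same difference in Teff. It passed in limma for 5 of the 12119 genes (0.0413%), and Il10 was the 1 member among them (−2.78, 95% interval −3.35 to −2.21, adjusted p = 0.0124). At an unadjusted p under 0.05 it passed for 10 members, against 11.4% of all genes. Of these, besides Il10, Pafah1b3 (1.07 in Treg, 0.43 in Teff), Gypc (1.63 and 0.73), Lhfpl2 (1.72 and 0.87) and Maged2 (1.74 and 0.88) had the smallest p. For members that miss this threshold the interval states what remains possible. It ran from −0.89 to 0.75 for Prdm1, from −1.39 to 1.38 for Lif, from −0.21 to 1.14 for Slc2a6 and from −0.08 to 1.25 for Ctla4, whose fall was 1.13 in Treg and 1.71 in Teff.

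**Figure D3:**
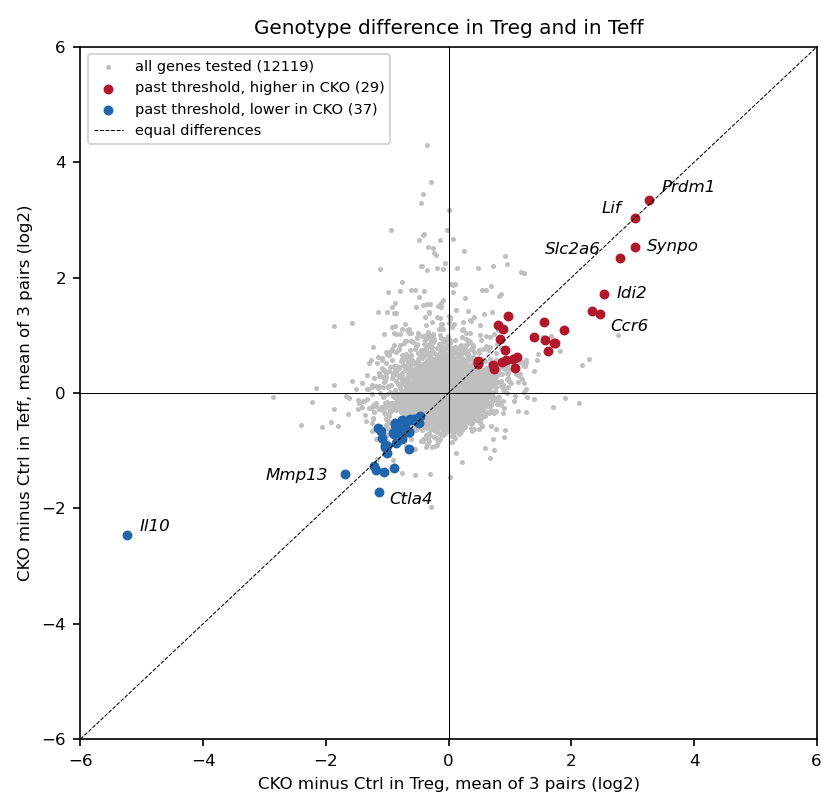
Genotype difference in Treg (horizontal axis, log2, mean of 3 pairs) against that in Teff (vertical axis), with all 12119 genes in grey, the 29 rises in red and the 37 falls in blue; the dashed line marks equal differences. The 66 members lie at lower left and upper right by selection, and Il10 stands apart, at −5.24 in Treg and −2.46 in Teff.

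Genes called for one cell type were read in the pairs of the other. The calls came from the fit with 1 coefficient per cell type, whose error variance was estimated from all 12 arrays. The choice for one cell type therefore also used the spread of the other's pairs, so the readings are not independent. Fits of 1 cell type's arrays alone gave 348 calls in Treg and 3 in Teff and were not read this way. The fit of all 12 arrays gave 264 calls for Treg (2.18% of genes tested). Of these, 122 (46.2%) moved the same way in 3 of 3 Teff pairs, against 16.2% of all genes, and 204 (77.3%) had a Teff mean of the same sign, against 51.1%. The same fit gave 12 calls for Teff (0.099%). Of these, 10 (83.3%) moved the same way in 3 of 3 Treg pairs, against 19.2% of all genes. The 2 sets shared 7 genes, 2.65% of the first and 58.3% of the second. All 7 are members: Prdm1, Slc2a6, Il10, Grap2, Ctla4, Tmem154 and the lower clone-named transcript. Across all genes the mean Treg and mean Teff differences had a correlation of 0.119, a description over genes that share arrays.

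Members also differed in level between the cell types, which is described without a test. The level includes the CKO arrays, so an unequal genotype difference enters it, and the filter used levels as well. Averaged over both genotypes, 6 members (9.09%, against 1.07% of all genes) were more than 1 log2 unit higher in Treg: Ctla4 (2.33), Ccr6 (1.96), Tmem154 (1.89), Stambpl1 (1.61), Ifi27l2a (1.60) and Maged2 (1.01). In Teff 4 were higher by as much (6.06%, against 1.4% of all genes), with Treg-minus-Teff levels of −2.59 for Crtam, −1.78 for Fes, −1.17 for Cd9 and −1.12 for Il10. For Il10 the means of Ctrl Treg (12.22) and Ctrl Teff (11.95) were close, and that of CKO Treg (6.98) was below that of CKO Teff (9.49). The 66 genes lie on 20 chromosomes, with at most 8 on any 1. Of the members, 27 had other probes above the filter, 41 in all, and 39 of these had the sign of the probe used. The exceptions were a dim probe of Cep120 and one of Dpysl2. The share over all genes was not counted, and sign alone says little where a probe was near 0. Such probes gave −0.02 for Arhgef6, 0.02 for Mid2 and −0.06 for Rcan3, and one of Synpo gave 0.09 against 2.78. Others came close to the probe used, such as 1.98 for Ccr6 and 1.17 for Cxcr5. On all 12 arrays 62 members were above the array median, and 6670 of the 12119 genes had a probe above it throughout. Members and all genes were therefore unlike in level, which limits the comparison of the shares given above.

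Signals of other cell types moved with genotype on some arrays and are given beside the response. Of 10 basophil and mast cell genes, 6 were tested and none was called. Their mean level was 5.22 to 5.72 in Ctrl Treg, 5.26 to 5.59 in CKO Treg and 5.01 to 6.38 in Ctrl Teff, but 9.40 and 9.55 on CKO Teff 1 and 2 and 5.52 on CKO Teff 3. Prss34, a basophil protease, read 13.96 and 12.85 on those 2 arrays. Of the 4 listed genes that were not tested, Ms4a2, a receptor subunit of basophils and mast cells, and the mast cell proteases Mcpt1 and Tpsb2 did not exceed the array median on any array. Markers of CD8 T and NK cells (8 of 10 tested, none called) had means of 7.07 and 8.40 on the same 2 arrays, against 5.21 to 6.03 on the other 10, and Cd8a and Ncr1 were never above the median. In bulk samples a change in the number of cells of a type and a change in RNA per cell cannot be told apart. With both Teff pairs 1 and 2 left out, a choice made after seeing the data, 50 of the 66 members were called, among 196 genes. All 66 kept their sign there, which was fixed in advance, since each had 1 sign in all 6 pairs.

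MHC class II genes mark antigen-presenting cells. Of 7 tested none was called, and 4 were higher in 6 of 6 pairs (3.01% of all genes were). An unadjusted limma p under 0.05 was found for 5 (11.4% of all genes), and the median was 1.27 (0.68 in Treg, 1.85 in Teff). Their mean level was 6.52 to 7.51 in Ctrl Treg, 7.25 to 8.12 in CKO Treg, 5.57 to 7.37 in Ctrl Teff and 6.93 to 8.36 in CKO Teff. It was higher in CKO in 5 of 6 pairs, and in Treg pair 1 it was 7.49 in CKO and 7.51 in Ctrl. Cd74, the invariant chain, came nearest to the threshold (1.27, adjusted p = 0.0571). T cell markers went the other way: of 7 tested, Cd2 was called lower, Cd3e (−0.48, adjusted p = 0.065) and Cd3g were lower in 6 of 6 pairs, and the median was −0.40, with Thy1 at 0.28. Their mean level was 10.47 to 10.86 in Ctrl Treg, 10.37 to 10.46 in CKO Treg, 10.51 to 10.58 in Ctrl Teff and 10.13 to 10.30 in CKO Teff. The part of these shifts in the falls of Lat, Grap2, Cd2 and the other T cell genes was not tested. Neutrophil genes (13 tested) varied from 5.94 to 9.97 across arrays with overlap of the genotypes, and none was called. No gene was called among the tested markers of B cells (2), plasma cells (4), macrophages and dendritic cells (7), red cells (1) and epithelial and stromal cells (7).

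**Figure D4:**
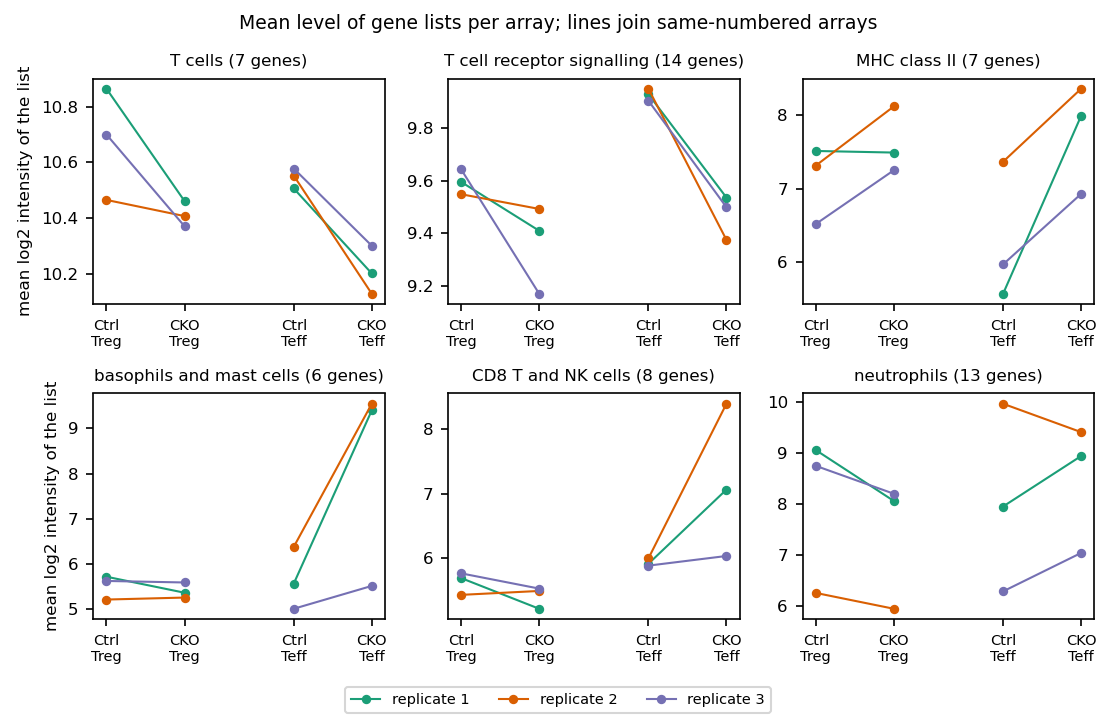
Mean log2 intensity per array of 6 gene lists, by genotype and cell type, with coloured lines joining arrays of one number. The T cell and T cell receptor signalling lists fall in every pair, while the basophil and mast cell list reaches 9.40 and 9.55 on CKO Teff 1 and 2 only.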

How the data were processed

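RNA of 12 samples was measured on Illumina mouse arrays after purification with Qiagen RNeasy columns and conversion to biotin-labelled cRNA with an Ambion MessageAmp kit, per the labels' protocols. The authors deposited 1 value per probe and array, on a log2 intensity scale as read from the range of values; GenomeStudio and limma 3.30.11 are named in the submitters' processing notes. The sources used here do not state a background correction or normalization, and raw intensities were not used here. Array medians of 4.66 to 4.68 led to no further normalization. The number of arrays limits the precision.

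Of 31641 probes, 28197 had 1 gene symbol in the platform annotation, 5 had several and 3439 none. Probes above the array median on at least 3 arrays were kept (17579 with 1 symbol), and the kept probe with the highest mean stood for each gene, which gave 12119 genes, 3764 of them with several kept probes. limma 3.58.1 in R 4.3.3 (lmFit, eBayes, two-sided, 8.86 total degrees of freedom, 3.86 of them prior) tested the shared genotype effect with 6 pair blocks. A second fit with 1 genotype coefficient per cell type (8.65 degrees of freedom) gave the effect in each cell type and their difference. Further packages were data.table (version 1.17.8) and statmod (version 1.5.0). The fits were tested on simulated data.

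Equal replicate numbers in the titles define the pairs. As a check of the pairing, residuals of same-numbered CKO and Ctrl arrays were correlated across genes. The correlation was 0.519 to 0.589 for Treg pairs and 0.348 to 0.737 for Teff pairs, in every case the highest for that array's own number.

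Named genes were Prdm1, Il10, the 15 largest rises and falls among called genes of 1 direction in 6 pairs, and up to 4 members of each described list by smallest p; clone names were counted, not named. Further names, which include Cd6, Cd3g, Zap70, Slc2a1, Pfkl, H2 genes, Prss34 and Thy1, were added after their values were seen. The members, lists and alternatives were chosen with earlier results of these data known. Alternatives were no or a random block, a coefficient per cell type, other normalizations, filters and probe rules, trend and robust or array-weighted fits, 1 cell type only and each pair left out.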

Additional observations from a re-analysis of the deposited data

Results flagged for a closer look

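In 4 of 66 members 1 pair stood apart from the other 5 by Dixon's criterion at the 95% level, which chance alone gives in about 1 in 20 groups of values. Nrn1 had a difference of 0.59 in Teff pair 2, against 1.36 to 1.77 in the other pairs. Tnfrsf4 had −0.16 in Teff pair 3, against −0.69 to −0.52. Stambpl1 had −0.12 in the same pair, against −1.26 to −0.90. A430093F15Rik, a transcript with a clone name that is singled out here after its values were seen, had −1.79 in Teff pair 2, against −1.24 to −1.09. All 4 lie in Teff pairs.

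The genotype difference itself differed between the cell types for 5 genes in limma. Il10 fell more in Treg than in Teff, with a Treg-minus-Teff difference of −2.78. Ncmap, Ecm1 and Ky had differences of −2.79, −2.001 and −1.54. They fell in Treg (−2.86, −1.87 and −1.63) and stood at −0.07, 0.14 and −0.09 in Teff. In Teff, however, Ncmap had group means of 4.62 in Ctrl and 4.55 in CKO, and Ky of 4.48 and 4.39. These lay below the array medians of 4.66 to 4.68, so Ncmap and Ky had little room to fall in Teff. Ky was above the median on 3 arrays, all Ctrl Treg, and passed the filter through that group alone. Pdlim1 had 1.69, with 2.28 in Treg and 0.59 in Teff, and was higher in 6 of 6 pairs without passing the test of the shared effect (adjusted p = 0.0828). Ncmap, Ecm1, Ky and Pdlim1 are not among the 66 shared genes.

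Probes that the annotation gives no single gene symbol were set aside from the gene counts. Of 1817 such probes above the filter, 18 passed the threshold of the shared effect, 8 higher and 10 lower in CKO, and all 18 had 1 direction in 6 of 6 pairs.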

How the results depend on the processing

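All members tested kept their direction in each of 21 alternatives, which for many of these was fixed in advance. Members had 1 sign in all 6 pairs, so fits on fewer pairs could not turn it. Other block choices and the trend and robust settings leave the mean difference unchanged. Prdm1 kept its call in the 20 alternatives that tested it, at 3.17 to 3.49 without 1 pair. Il10 was −3.85 with an adjusted p of 0.0762 under trend and robust settings and −4.19 to −3.50 without 1 pair. The count of 66 called genes was 8 with no replicate block, 62 with a random block (44 of them members), 275 with a coefficient per cell type (209 of 1 direction in 6 pairs), 111 with the 75th percentile filter, 111 with probes above the median on all 12 arrays, 139 with trend and robust settings, 348 from Treg arrays only, 3 from Teff arrays only, 18 to 69 without 1 pair and 196 without both Teff pairs 1 and 2. Genes of 1 direction numbered 4323 in Treg only, 3700 in Teff only, 1166 to 1316 without 1 pair and 2477 without both, since fewer pairs had to agree. In the order no replicate block, 75th percentile, all 12 arrays, and trend and robust settings, the 5 genes that differed between cell types became 2, 12, 30 and 64; array weights gave 11, the fits without 1 pair 0 to 119, and the fit without both Teff pairs 0. The 10 called list members became 2, 19, 20 and 17 in the same order, 38 with a coefficient per cell type, 37 from Treg only, 2 from Teff only, 2 to 9 without 1 pair and 19 without both. Of 30 named genes 6 were called with no replicate block, 3 from Teff only and 14 to 25 without 1 pair. Of the members 16 kept their call in all 6 fits without 1 pair and 8 in none. Except where stated, the cause of these shifts was not tested.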
